A study of Mus musculus with 8 samples.

Results

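Stellate cell and portal fibroblast markers were followed in RNA-seq libraries of sorted mouse liver cells. Of the 46603 genes in the count table, 10 were followed, chosen by name as known markers of these mesenchymal cells: Dcn, Des, Pdgfrb, Pdgfra, Reln, Hgf, Col1a1, Col1a2, Col3a1 and Ecm1. Each of 4 mice (JV602, JV621, JV624 and JV6314) gave 2 libraries of EpCAM+CD45- cells, 1 of label-retaining cells (LLRCs, EGFP+) and 1 of non-LRC cells (EGFP-). All mice carried 1 copy each of R26rtTA and H2B-EGFP, were given doxycycline in the first 5 days after birth and were sorted at 8 weeks of age. The R26 locus is active in most cell types, so the EGFP label was not limited to 1 lineage, and it is diluted when a labelled cell divides. Both groups shared the transgenes, the doxycycline and the EpCAM+CD45- gate, and differed in EGFP. Blood cells of these mice can carry EGFP even without doxycycline, and the gate for CD45- cells is meant to leave them out. Ptprc, the gene of CD45, was read at 0.485, 4.02, 2.06 and 6.55 CPM in LLRCs (5 to 59 counts) against 0, 0, 0 and 1.38 CPM in non-LRC cells, higher in LLRCs in all 4 mice (log2 fold change 3.27, unadjusted p = 0.0468, adjusted p = 0.957 with edgeR's quasi-likelihood test). Several Kupffer cell markers with few reads had more of them in the EGFP- libraries, while Csf1r, the best read of that list, differed little. Their values are given beside the summed levels.

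Hepatic stellate cells lie between the endothelium and the hepatocytes, store vitamin A and turn into matrix-producing myofibroblasts on injury. Portal fibroblasts surround the bile ducts and make the collagen and elastic fibres of the portal tract. Both are mesenchymal cells that do not make EpCAM, so an EpCAM+ gate is meant to leave them out, while the ductal cells in the gate lie next to portal fibroblasts in the tissue.

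The libraries held between 4670132 and 9851819 counts, and each of the 4 non-LRC libraries was smaller than the LLRC library of the same mouse. Levels are given as normalized counts (CPM), scaled by TMM. A level of 3 counts corresponded to 0.291 to 0.626 CPM, so a gene at 0 counts was below that level and may still have been transcribed. Of the 14 endothelial markers 12 had enough reads to be tested, and all 12 were lower in every LLRC library than in any non-LRC library, as were 1.91% of all 13605 genes tested. Some of them, such as Stab1 with 7, 3, 9 and 7 counts in LLRCs, passed the filter through their reads in non-LRC cells. The count of 12 is thus a description only. Epcam, the sorted marker, stood at 583 ± 48.6 CPM in LLRCs against 551 ± 148 CPM in non-LRC cells (SD, n = 4 each). The non-LRC library of JV621 had the fewest genes detected (14234, against 20430 in the LLRC library of the same mouse), and that of JV6314 carried the transcripts of pancreatic acinar enzymes. In RNA from sorted pools, fewer cells of a type and less RNA per cell cannot be told apart.

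Of the 10 markers, 9 had a lower mean CPM in LLRCs than in non-LRC cells, and Reln alone had a higher one. Reads were found for 6 of them in all 8 libraries (Dcn, Reln, Ecm1, Col3a1, Col1a1 and Col1a2). The expression filter kept 6 for the test (Dcn, Ecm1, Col3a1, Col1a2, Pdgfra and Reln), and left out Des, Pdgfrb, Hgf and Col1a1. With edgeR's quasi-likelihood (QL) test, 0 of these 6 had an adjusted p below 0.05, as did 0% of all 13605 genes tested. At an unadjusted p below 0.05, Dcn and Ecm1 were lower in LLRCs (2 of 6, against 3.56% of all genes tested), and none of the 6 was higher (against 1.6%). DESeq2's Wald test called 1 of the 6, Ecm1 (1.26% of all genes were called lower), and edgeR's exact test called the same gene (0.933%). Log2 fold changes, given as LLRC over non-LRC, were below 0 for 5 of the 6 tested, against 51.1% of all genes tested. Their median was -2.19, beside -0.01 over all genes. It was -1.28 with limma, -1.56 without the non-LRC library of JV624 and, over the 7 markers that could be tested there, -0.63 in JV602 and JV621 alone. Such counts describe only the genes that the filter let through, which had reads in about as many libraries as a group holds. The plot of the markers by library shows all 10.

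**Figure D1:**
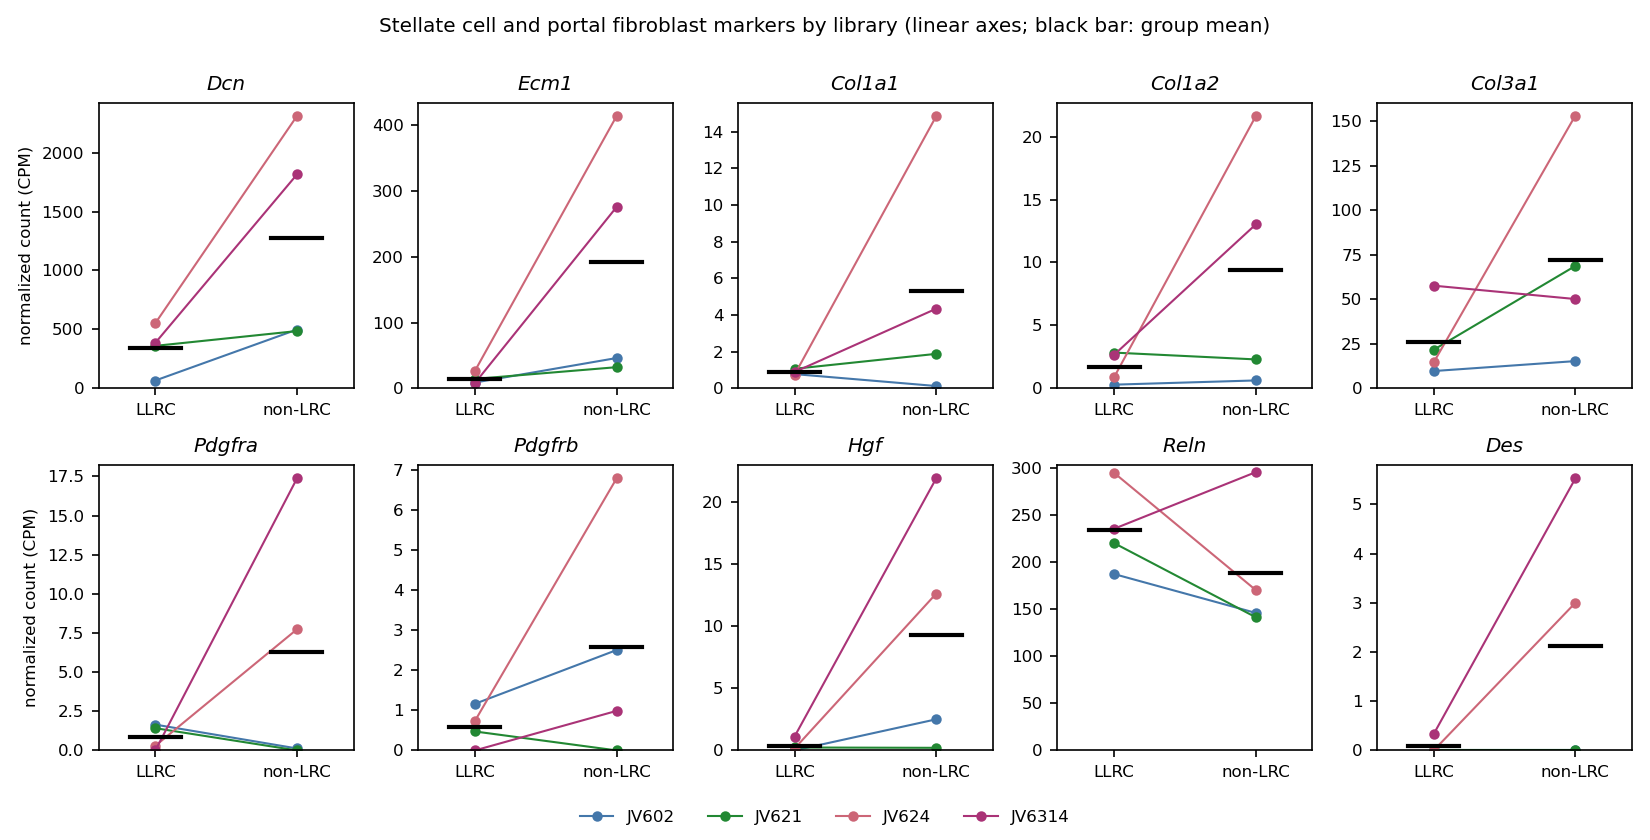
CPM of the 10 markers (y axis, linear, 1 panel per gene) in LLRC and non-LRC libraries (x axis), with a line joining the 2 libraries of each mouse and a black bar at the group mean. Dcn is between 66.2 and 2311 CPM and Reln between 142 and 296 CPM, while Des, Pdgfrb, Pdgfra and Hgf are at 0 counts in at least 1 library.

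The stretches of 250 bases before the transcription start were looked up for the markers in RefSeq's GRCm38.p6 table, where 7 of the 10 had one (8 windows, 2 of them for Hgf). None was found for Dcn, Pdgfrb and Col1a1. Both strands were searched for TATAAA (reverse complement TTTATA), the core of a TATA box, and CCAAT (reverse complement ATTGG), letters which do not overlap. TATAAA was present in 12.4% and CCAAT in 33.8% of all 32851 windows. Among the markers, Ecm1 and Col3a1 had a TATAAA, Col1a2 a CCAAT, and Des, Pdgfra, Hgf and Reln neither. The windows of Ecm1, Col3a1 and Reln are shown, 5′ to 3′ on the strand of the gene, since Ecm1 had the largest difference between the groups among the markers tested and Reln alone had a higher mean in LLRCs. The capitals mark TATAAA.
Ecm1: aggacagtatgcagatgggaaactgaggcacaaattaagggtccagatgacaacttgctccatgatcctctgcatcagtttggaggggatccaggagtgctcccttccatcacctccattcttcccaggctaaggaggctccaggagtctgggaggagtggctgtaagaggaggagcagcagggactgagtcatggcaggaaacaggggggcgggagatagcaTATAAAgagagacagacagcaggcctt
Col3a1: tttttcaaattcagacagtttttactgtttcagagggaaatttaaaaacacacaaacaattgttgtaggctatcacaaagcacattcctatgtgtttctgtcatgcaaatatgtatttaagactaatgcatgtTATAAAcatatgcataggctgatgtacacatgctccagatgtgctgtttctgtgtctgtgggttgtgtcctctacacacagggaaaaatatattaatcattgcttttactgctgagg
Reln: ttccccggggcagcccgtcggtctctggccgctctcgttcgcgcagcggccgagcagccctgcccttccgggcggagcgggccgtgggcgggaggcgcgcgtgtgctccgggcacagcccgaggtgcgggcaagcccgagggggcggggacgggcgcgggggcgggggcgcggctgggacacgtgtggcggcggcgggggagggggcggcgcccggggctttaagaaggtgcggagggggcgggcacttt
The Ecm1 window (chr3:95739570-95739819, minus strand) has 54.0% GC and 1 CpG, and its TATAAA begins 27 bases before the start. The Col3a1 window (chr1:45311288-45311537, plus strand) has 35.2% GC and 0 CpG, with the TATAAA 117 bases before the start. The Reln window (chr5:22344706-22344955, minus strand) has 80.0% GC and 37 CpG, and the median window has 52.4% GC and 6 CpG. These windows held no exon bases of the GENCODE annotation, and a match of letters is not evidence that a factor binds there.

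Among the matrix proteins, Ecm1 showed the largest difference of the markers tested. Ecm1 (chromosome 3, 95734147 to 95739569 of GRCm38, minus strand) encodes a secreted glycoprotein of the extracellular matrix. It stood at 8.82, 14.3, 26.5 and 7.99 CPM in the EGFP+ libraries of JV602, JV621, JV624 and JV6314 against 46.1, 32.2, 414 and 276 CPM in the EGFP- libraries of the same mice. Every LLRC library was below every non-LRC library, as for 1.91% of all genes tested, and the non-LRC libraries of JV624 and JV6314 were far above the other two. The means were 14.4 ± 8.52 CPM in LLRCs against 192 ± 186 CPM in non-LRC cells (SD, n = 4), and the exact two-sided permutation test gave p = 0.0286, the smallest that 4 against 4 libraries allow. That test takes the 8 libraries as unpaired, and a paired exact sign-flip test over 4 mice cannot give a p below 0.125. The log2 fold change was -3.74 (standard error, SE, 0.88, adjusted p = 0.275 from edgeR's QL test). With DESeq2 the adjusted p was 0.000515 and with edgeR's exact test 0.00357, so the choice of test decided whether Ecm1 was called. Over all alternatives the adjusted p lay between 0.000515 and 0.998. Within mice, the non-LRC library held 5.22, 2.25, 15.6 and 34.5 times the LLRC level. Without JV624 the non-LRC mean was 118 CPM and the log2 fold change -3.04, and in JV602 and JV621 alone the log2 fold change was -1.75 (SE 0.57).

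Dcn (chromosome 10, 97479609 to 97518143, plus strand) encodes decorin, a small proteoglycan that binds collagen fibrils, and had the most reads. With mice in the order JV602, JV621, JV624 and JV6314, the LLRC libraries held 66.2, 360.3, 553 and 386 CPM and the non-LRC libraries 499, 486, 2311 and 1815 CPM. The non-LRC library was the higher one in all 4 mice, which held for 2 of the 6 markers tested (Dcn and Ecm1) and for 5.53% of all genes tested. Across mice the groups overlapped, since JV624 had more Dcn in its LLRC library than JV602 and JV621 had in their non-LRC libraries. The means were 341 ± 202 and 1278 ± 929 CPM (SD, n = 4), and the exact permutation p was 0.0857. The log2 fold change was -1.90 (SE 0.72, unadjusted p = 0.0258, adjusted p = 0.832 with edgeR's QL test). With the mouse as a block it was -1.93 (SE 0.46, adjusted p = 0.628 with the same edgeR test), and Dcn and Ecm1 were again the markers lower at an unadjusted p below 0.05 (2 of 6, against 2.46% of all genes). Non-LRC cells held 7.53, 1.35, 4.18 and 4.70 times the LLRC level in the 4 mice, so the ratio was closest to 1 in JV621. In JV602 and JV621 alone the log2 fold change was -1.20.

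The fibrillar collagens were lower in abundance and depended on single libraries. Col3a1 (chromosome 1, 45311538 to 45349706, plus strand), which encodes the type III collagen of reticular fibres, stood at 9.69, 21.6, 14.6 and 57.6 CPM in the EGFP+ libraries against 15.3, 68.7, 153 and 50.1 CPM in the EGFP- libraries, with mice in the same order. The LLRC library of JV6314 was above the non-LRC libraries of JV602 and JV6314, so the groups overlapped. The means were 25.9 ± 21.7 and 71.8 ± 58.6 CPM (SD, n = 4), a log2 fold change of -1.47 (SE 0.75, adjusted p = 0.9999 from edgeR's QL test) with an exact permutation p of 0.2. Without JV6314 the LLRC mean was 15.3 CPM, and without JV624 the non-LRC mean was 44.7 CPM. The log2 fold change was -2.22 without the LLRC library of JV6314 and -0.79 without the non-LRC library of JV624.

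Col1a1 (chromosome 11, 94936224 to 94953042) and Col1a2 (chromosome 6, 4504814 to 4541544) encode the chains of type I collagen, the main collagen of scar tissue. Col1a1 had 8, 9, 5 and 8 counts in the EGFP+ libraries against 1, 9, 94 and 22 counts in the EGFP- libraries. Col1a2 had 3, 24, 6 and 24 counts in the EGFP+ libraries against 5, 11, 137 and 66 counts in the EGFP- libraries. Both chains were highest in the non-LRC library of JV624 and second highest in that of JV6314, and the other libraries held few reads. Col1a1 stood at 0.866 ± 0.147 CPM in LLRCs against 5.30 ± 6.59 CPM in non-LRC cells (2.12 CPM without JV624), and its exact permutation p was 0.143. Col1a2 stood at 1.67 ± 1.28 and 9.39 ± 9.83 CPM (5.32 CPM without JV624), with an exact permutation p of 0.314. The log2 fold change of Col1a2 was -2.48 (SE 1.11, adjusted p = 0.962 with edgeR's QL test), and it was -1.38 with limma, -1.66 without the non-LRC library of JV624 and 0.12 in JV602 and JV621 alone.

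The PDGF receptors, through which PDGF drives stellate cells to divide and migrate, had few or no reads in most libraries. Pdgfra (chromosome 5, 75152292 to 75198215) had 17, 12, 2 and 0 counts in the EGFP+ libraries of JV602, JV621, JV624 and JV6314 against 1, 0, 49 and 88 counts in the EGFP- libraries. In JV602 and JV621 the LLRC library was thus the higher one, and in JV624 and JV6314 the non-LRC library was. The mean was 0.840 ± 0.815 CPM in LLRCs against 6.31 ± 8.21 CPM in non-LRC cells, 2.62 CPM without JV6314, and the exact permutation p was 0.4. The log2 fold change was -2.87 (SE 1.65, adjusted p = 0.9999) over all mice and 4.13 (SE 1.47, adjusted p = 0.998) in JV602 and JV621 alone, both with edgeR's QL test. With the mouse as a block it was -1.23 (SE 3.85), with limma -1.18 and without the non-LRC library of JV6314 -1.61. Pdgfrb (chromosome 18, 61045150 to 61085061) had 12, 4, 5 and 0 counts in the EGFP+ libraries against 20, 0, 43 and 5 counts in the EGFP- libraries. These were 0.593 ± 0.487 and 2.57 ± 2.99 CPM (1.16 CPM without JV624), with an exact permutation p of 0.286.

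Hgf (chromosome 5, 16553495 to 16620152) encodes the growth factor that stellate cells supply to hepatocytes and bile duct cells. It had 0, 2, 1 and 10 counts in the EGFP+ libraries against 20, 1, 80 and 111 counts in the EGFP- libraries. The non-LRC libraries of JV602, JV624 and JV6314 were above every LLRC library, and that of JV621 was below the LLRC libraries of JV621 and JV6314. The means were 0.373 ± 0.501 and 9.31 ± 9.98 CPM (SD, n = 4), with an exact permutation p of 0.0857. Without JV6314 the means were 0.128 CPM in LLRCs against 5.11 CPM in non-LRC cells. Des (chromosome 1, 75360329 to 75368579) encodes desmin, the muscle-type filament protein used to stain stellate cells. It had 0, 0, 0 and 3 counts in the EGFP+ libraries against 0, 0, 19 and 28 counts in the EGFP- libraries. Desmin reads were thus seen in JV624 and JV6314 only. Pooled over libraries, non-LRC cells held 22.4 times the LLRC level (95% exact counting interval 7.21 to 112.5, for 3 against 47 counts), an interval that covers counting error only.

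When the expression filter was left out, the 4 markers it had removed could be fitted as well. Their log2 fold changes were -2.55 for Col1a1 (SE 1.12), -2.06 for Pdgfrb (1.42), -4.51 for Hgf (1.39) and -4.33 for Des (1.93), each with an adjusted p of 0.633 from edgeR's QL test. In that fit, 11 of 27591 genes were called (0.0399%) and none of the 10 markers was. At an unadjusted p below 0.05, 6 of the 10 markers were lower in LLRCs (Dcn, Ecm1, Hgf, Des, Col1a1 and Col1a2), against 4.04% of all genes in that fit. Over the alternatives that kept it, Hgf lay between -6.04 (without the LLRC library of JV6314) and -4.14 (without that of JV602). Pdgfrb lay between -2.49 (without the non-LRC library of JV621) and -0.63 (SE 1.85, in JV602 and JV621 alone). Col1a1 lay between -3.01 and -2.51, and Des was at -4.35 with at least 1 CPM in 2 libraries.

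Reln was well read in all libraries. It encodes reelin, a large secreted glycoprotein that guides neurons in the brain and is made by stellate cells in the liver (chromosome 5, 21884454 to 22344702, minus strand). With mice in the order JV602, JV621, JV624 and JV6314, the LLRC libraries held 187, 220.3, 295 and 236 CPM, and the non-LRC libraries 146, 142, 170.5 and 296 CPM. Reln was the higher one in LLRCs in JV602, JV621 and JV624, and in non-LRC cells in JV6314, and the groups overlap only through the non-LRC library of JV6314, the highest of all 8. The means were 235 ± 45.0 and 188 ± 72.6 CPM (SD, n = 4), a log2 fold change of 0.32 (SE 0.31, adjusted p = 0.9999 with edgeR's QL test) and an exact permutation p of 0.343. In the alternatives it lay between 0.19 (library size alone) and 0.62 (without the non-LRC library of JV6314, where every LLRC library is above every other non-LRC library, with an unadjusted p of 0.0449 and an adjusted p of 0.85 from edgeR's QL test). The plot of fold changes sets Reln beside the other markers.

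**Figure D2:**
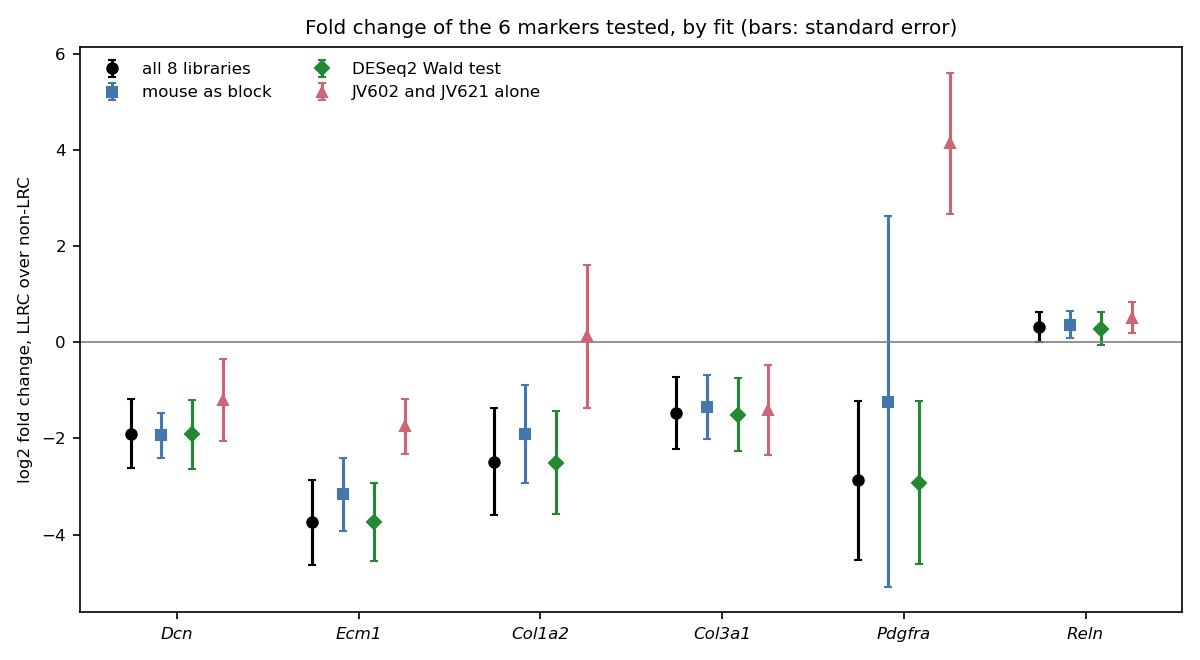
Log2 fold change (LLRC over non-LRC, y axis) of the 6 markers tested, from edgeR's QL test on all 8 libraries, with the mouse as a block, from DESeq2 and in JV602 and JV621 alone, with standard errors as bars. On all libraries Ecm1 lies at -3.74, Dcn at -1.90 and Reln at 0.32, and Pdgfra moves to 4.13 in JV602 and JV621 alone.

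Divided by the summed exon length, so that genes could be set beside each other, the markers spanned a wide range. In LLRCs Dcn led with 58.4 ± 34.6 CPM per kb (SD, n = 4), followed by Reln at 9.88 ± 1.90, Ecm1 at 5.71 ± 3.38 and Col3a1 at 2.64 ± 2.21 CPM per kb. In non-LRC cells the order was Dcn (218.8 ± 159 CPM per kb), Ecm1 (76.2 ± 73.6), Reln (7.94 ± 3.06) and Col3a1 (7.31 ± 5.97). In LLRCs Ecm1 and Col3a1 lay within 1 SD of each other, so their order there is within the spread. In non-LRC cells Dcn was above Ecm1 in each of the 4 libraries, and Ecm1 (18.3, 12.8, 164 and 109 CPM per kb) was above Reln (6.16, 5.96, 7.18 and 12.5 CPM per kb) without overlap, while Reln and Col3a1 overlapped. Col1a1, Col1a2, Pdgfra, Pdgfrb, Hgf and Des were between 0.0222 and 0.134 CPM per kb in LLRCs and between 0.469 and 1.30 in non-LRC cells, and in both groups neighbours in the order lay within 1 SD of each other.

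The non-LRC reads of most markers came from JV624 and JV6314. These 2 non-LRC libraries held 80.7% of the non-LRC CPM of Dcn, 89.8% of Ecm1, 90.5% of Col1a1, 92.2% of Col1a2, 92.7% of Hgf, 99.5% of Pdgfra and 100% of Des. For Reln, Col3a1 and Pdgfrb the share was 61.8%, 70.8% and 75.6%. In 8 of the 10 markers (5 of the 6 tested) both of these non-LRC libraries were above the non-LRC libraries of JV602 and JV621, as in 21.7% of all genes tested. Over the 6 markers tested, the median log2 ratio of LLRC to non-LRC was -0.66, -0.08, -3.60 and -2.21 for JV602, JV621, JV624 and JV6314, in this order. The summed level of the 10 markers was 276, 623, 891 and 692 CPM in the EGFP+ libraries against 712, 733, 3115 and 2499.8 CPM in the EGFP- libraries.

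Markers of other cell types moved across the same libraries, as the plot of summed levels shows. The 8 hepatocyte markers summed to 2568 to 3076 CPM in LLRCs against 2807, 1999, 5332 and 4121 CPM in the EGFP- libraries, with mice in the same order and none at 0. Hepatocyte markers were thus highest in JV624 and JV6314, where the mesenchymal markers were highest too. The 14 endothelial markers summed to 37.8 to 75.6 CPM in LLRCs against 268, 1000.2, 552 and 787 CPM in non-LRC cells, where 2 of them were at 0 in JV621. The sum in JV621 was the highest only through Oit3 (340.4 CPM there). Without Oit3 the non-LRC sums were 221, 659.9, 494 and 685 CPM, with JV621 still near the highest. The 5 mesothelial markers in the table summed to 853 to 1602 CPM in LLRCs against 1150.4, 2256, 2974 and 1938 CPM in non-LRC cells, with 1 at 0 in the JV621 library. The 10 cholangiocyte markers, nearly all of whose sum is Spp1, ran the other way in JV624 and JV6314, with 113538 to 220511 CPM in LLRCs against 142047, 160966, 65739 and 103462 CPM in non-LRC cells. Epcam itself stood at 528, 766, 432 and 478 CPM in the EGFP- libraries, lowest in JV624 and JV6314 as well. The 8 acinar markers were at 1.89 to 7.46 CPM in LLRCs against 5.39, 6.26, 22.9 and 1027 CPM in non-LRC cells. The leukocyte and Kupffer cell markers (9 genes) summed to 12.2 to 30.8 and 16.7 to 45.5 CPM, and did not move together. Csf1r, the best read of them, stood at 17.3 ± 8.40 CPM in LLRCs against 19.3 ± 6.03 CPM in non-LRC cells (SD, n = 4). Its log2 fold change was -0.16 (SE 0.44). Unlike Ptprc, Lyz2 had 1, 2, 0 and 0 counts in LLRCs against 5, 3, 24 and 11 in non-LRC cells. Cd5l, Adgre1, Clec4f and C1qa, genes of Kupffer cells, were read in the non-LRC libraries of JV624 and JV6314 and elsewhere at 0, but for 1 count of Cd5l in the LLRC library of JV624. Of the other lists, the 8 hepatocyte markers tested had 5 lower at an unadjusted p below 0.05 (against 3.56% of all genes tested). Their median log2 fold change was -1.71 (-0.10 in JV602 and JV621 alone). The 12 endothelial markers had 12 lower and a median of -3.53. The QL test called 0 in either list, and DESeq2 and the exact test each called 12 endothelial markers and 1 hepatocyte marker. Of all genes tested, DESeq2 called 1.26% lower and the exact test 0.933%. Of the 10 cholangiocyte markers, 1 was higher at an unadjusted p below 0.05 (against 1.6% of all genes tested). None of the 10 was called by the 3 tests, and the leukocyte list had the same counts (2 tested, with Ptprc higher). Of the acinar list 1 gene was tested, which was lower at an unadjusted p below 0.05 and was not called. The part that these cells have in the levels of the mesenchymal markers was not tested.

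**Figure D3:**
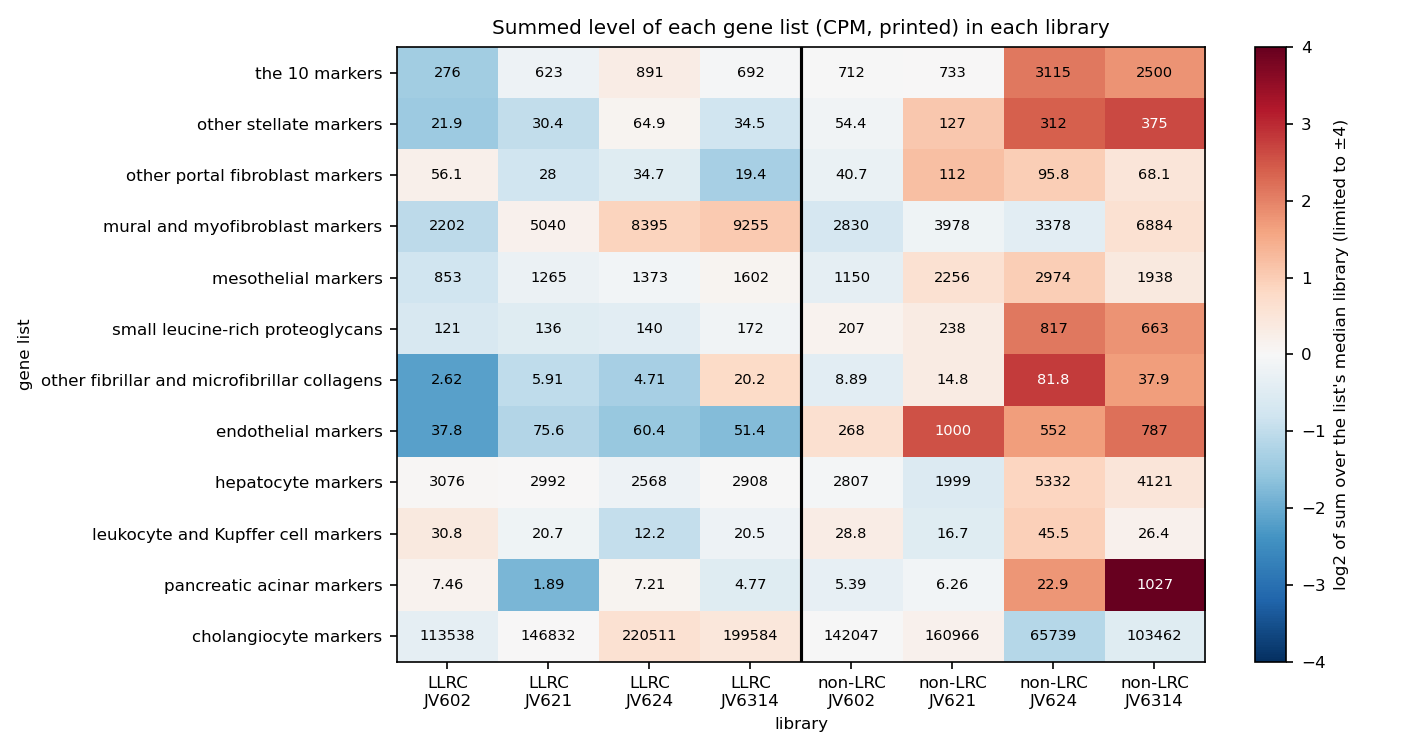
Summed CPM of each gene list (lines of the map) in the 8 libraries (columns), printed in each cell. The colour is the log2 of the sum over the median library of the list, limited to 4 on either side. The 10 markers reach 3115 and 2499.8 CPM in the non-LRC libraries of JV624 and JV6314, and 276 to 891 CPM in LLRCs.

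Other markers of the same mesenchymal cells were set beside the 10. Of 13 further stellate markers, 5 could be tested, and 5 of 5 had a log2 fold change below 0, with a median of -2.85. This median was smaller in size with the mouse as a block, with limma and in JV602 and JV621 alone, as given in the closing section. At an unadjusted p below 0.05, 4 were lower in LLRCs (against 3.56% of all genes tested), and 0 passed after adjustment with edgeR's QL test. DESeq2 called 2 (against 1.26%) and edgeR's exact test 1 (against 0.933%), and these shares over all genes apply to the lists that follow as well. Lrat, the enzyme that esterifies retinol for storage and a marker of quiescent stellate cells, stood at 4.56, 8.87, 6.03 and 4.22 CPM in LLRCs against 20.2, 52.6, 39.6 and 74.2 CPM in non-LRC cells. Every LLRC library was below every non-LRC library for Lrat, in JV602 and JV621 as in the other mice, as was the case for 1.91% of all genes tested. Its log2 fold change was -2.98 (SE 0.49, adjusted p = 0.104 with edgeR's QL test and 6.99e-07 with DESeq2). Colec11 and Colec10, secreted collectins, had log2 fold changes of -3.27 (SE 0.99, adjusted p = 0.556) and -2.22 (SE 0.82, adjusted p = 0.814) with the edgeR test.

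Of 12 further portal fibroblast markers, 4 could be tested, with 2 lower in LLRCs at an unadjusted p below 0.05, 0 called with edgeR's QL test (2 by DESeq2, 1 by edgeR's exact test) and a median log2 fold change of -1.43. Eln, which encodes elastin, stood at 0.872, 1.06, 0.147 and 0.111 CPM in LLRCs against 5.26, 9.81, 10.1 and 6.91 CPM in non-LRC cells, which came to 9, 9, 1 and 1 counts in LLRCs. Eln passed the filter through its reads in non-LRC cells and was named after its values were seen, so the difference is a description only. Cd34, which endothelial cells also express, had a log2 fold change of -2.23 (SE 0.66, adjusted p = 0.545 with the edgeR test). Fbln2, a fibulin of elastic fibres, stood at 21.7 ± 11.9 CPM in LLRCs against 34.0 ± 10.3 CPM in non-LRC cells, and Entpd2, an ectonucleotidase of portal fibroblasts, at 4.70 ± 3.38 and 3.97 ± 3.27 CPM (SD, n = 4).

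The mural and myofibroblast list (11 genes, 5 tested) had a median log2 fold change of -3.06, with 2 genes lower at an unadjusted p below 0.05 and 0 called by edgeR's QL test, DESeq2 or edgeR's exact test. Rgs5, a regulator of G-protein signalling known from pericytes, was the exception in level and direction, at 6211 ± 3238 CPM in LLRCs against 4177 ± 1789.5 CPM in non-LRC cells (SD, n = 4). Its log2 fold change was 0.57 (SE 0.48, adjusted p = 0.9999 with edgeR's QL test). Abcc9 and Kcnj8, the subunits of a potassium channel of pericytes, stood at 1.65 ± 1.42 and 2.65 ± 1.96 CPM in LLRCs against 24.9 ± 27.7 and 22.1 ± 25.5 CPM in non-LRC cells. Without JV624 these non-LRC means were 16.6 and 10.7 CPM, and without JV6314 the LLRC mean of Abcc9 was 1.02 CPM. In JV602 and JV621 alone the median of this list was 0.33. All 5 mesothelial markers tested were below 0, with a median of -1.31 (0.63 in JV602 and JV621 alone), 1 lower at an unadjusted p below 0.05 and 0 called by the same 3 tests. Gpm6a, a membrane glycoprotein, stood at 882 ± 238 CPM in LLRCs against 1520.3 ± 594 CPM in non-LRC cells.

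Other matrix genes were compared by function. Of the 7 small leucine-rich proteoglycans, the family of Dcn, 6 could be tested, 5 had a log2 fold change below 0 (against 51.1% of all genes tested) and 4 were lower at an unadjusted p below 0.05 (against 3.56%). None was called with edgeR's QL test, 3 were called by DESeq2 and 1 by edgeR's exact test. Bgn (biglycan) stood at 49.8, 23.3, 32.8 and 23.5 CPM in LLRCs against 83.9, 77.5, 143 and 122 CPM in non-LRC cells, without overlap (as 1.91% of all genes tested), with a log2 fold change of -1.72 (SE 0.36, adjusted p = 0.178 with the edgeR test). The other fibrillar and microfibrillar collagens (8 genes, 2 tested) had a median log2 fold change of -2.06, with 0 at an unadjusted p below 0.05 and 0 called by edgeR's QL test, DESeq2 or edgeR's exact test, and Col5a2 at 4.11 ± 7.28 and 13.2 ± 8.31 CPM. Without JV6314 the LLRC mean of Col5a2 was 0.483 CPM, and in JV6314 the LLRC library was the higher one. The 19 genes of collagen synthesis and crosslinking (16 tested) had a median of -0.27, with 2 lower and 1 higher at an unadjusted p below 0.05 and 0 called by the 3 tests. P4hb and Ppib, which most secretory cells use, had log2 fold changes of -0.10 each. Sparc, a collagen-binding protein, stood at 169 ± 26.1 and 259 ± 49.6 CPM, with a log2 fold change of -0.62 (SE 0.25, adjusted p = 0.893 with edgeR's QL test). Of the 10 matrix proteases and inhibitors, 3 were tested and 1, Timp3, was lower at an unadjusted p below 0.05. The QL test called 0 of them, and DESeq2 and the exact test called Timp3. Timp3, an inhibitor of metalloproteinases, stood at 56.8 ± 13.3 CPM in LLRCs against 212 ± 160 CPM in non-LRC cells, where the JV621 library was the highest at 449 CPM and the mean without it was 133 CPM (log2 fold change -1.90, SE 0.48, adjusted p = 0.358 with edgeR's QL test).

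Among the partners of the growth factor genes no difference was called. All 4 PDGF ligands had a log2 fold change above 0, between 0.13 and 1.60, as had 6647 of all 13605 genes tested. None was at an unadjusted p below 0.05, and 0 were called by edgeR's QL test, DESeq2 or edgeR's exact test. The 1.60 was that of Pdgfb (SE 1.41), with 59, 16, 0 and 23 counts in LLRCs against 7, 0, 15 and 0 in non-LRC cells. Pdgfd stood at 714 ± 58.4 CPM in LLRCs against 652 ± 362 CPM in non-LRC cells, and Pdgfc at 219 ± 73.4 and 144 ± 23.1 CPM (SD, n = 4). Met, the receptor of HGF, stood at 169, 219.5, 228 and 195 CPM in LLRCs against 124, 372, 81.1 and 158 CPM in non-LRC cells. The receptor, activators and inhibitors of HGF (8 genes, 7 tested) had a median log2 fold change of 0.02, with 0 at an unadjusted p below 0.05 and 0 called by these 3 tests. Of the 3 genes of the reelin pathway 2 were tested, with 0 at an unadjusted p below 0.05 and 0 called by any of these tests. Dab1, the adaptor that relays the reelin signal, stood at 165 ± 28.9 CPM in LLRCs against 110.2 ± 60.7 CPM in non-LRC cells. Vldlr, a reelin receptor, stood at 30.2 ± 7.83 and 8.42 ± 10.9 CPM and was at 0 in the non-LRC libraries of JV621 and JV6314. Lrp8, the other receptor, had 1 count in the LLRC libraries and 6 in the non-LRC libraries.

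**Figure D4:**
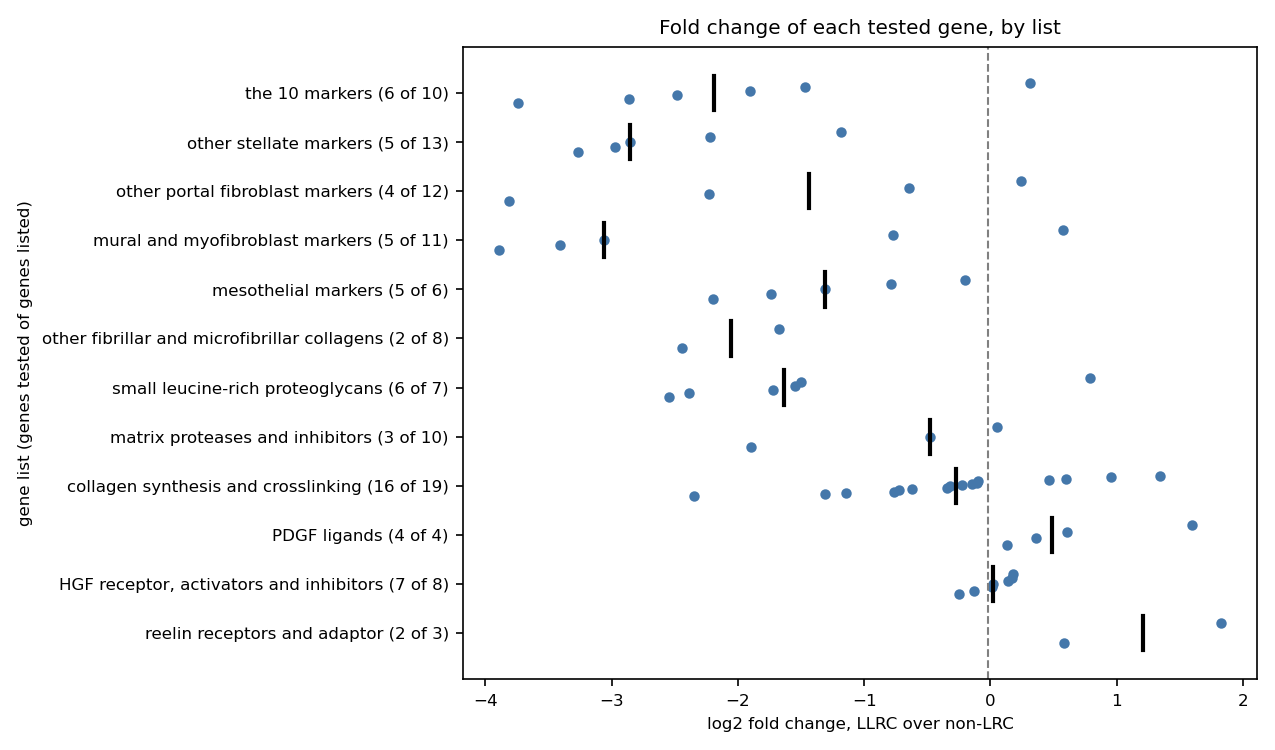
Log2 fold change (LLRC over non-LRC, x axis) of each gene tested, by list, with the median of each list as a black line and the median of all genes tested (-0.01) as a dashed line. The median is -2.85 for the other stellate markers, -1.63 for the small leucine-rich proteoglycans and 0.49 for the PDGF ligands.

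The genes outside these lists whose levels followed the 6 tested markers most closely over the 8 libraries were Ifi27l2a (Pearson r = 0.97), Adh1 (0.96), Anxa1 (0.96), Uroc1 (0.96) and the processed pseudogene Gm20900 (0.96). Adh1, an alcohol dehydrogenase abundant in hepatocytes, stood at 31.4, 54.9, 90.6 and 98.7 CPM in LLRCs against 61.2, 45.3, 575 and 394 CPM in non-LRC cells. Anxa1, an annexin, stood at 5.23, 11.7, 25.0 and 28.5 CPM in LLRCs against 11.9, 25.7, 137 and 140.1 CPM in non-LRC cells. Both were highest in the non-LRC libraries of JV624 and JV6314. The likeness is a description over 8 libraries, which come in pairs from the same mice and differ in sequencing depth.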

How the data were processed

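RNA from sorted EpCAM+CD45- liver cells was sequenced in 8 libraries, 4 LLRC and 4 non-LRC, grouped by the sample labels, which also name the mouse. The authors counted reads on exons with HTSeq, in union mode and without strand, on GRCm38.p4, and deposited raw counts per gene, not normalized. The aligner is not given in the sources used here. Without strand, reads of overlapping genes on either strand cannot be told apart. Between 1.04% and 6.74% of the exon bases overlap another gene, on the opposite strand for Des and Reln, on the same strand for Hgf, Col3a1 and Ecm1, and on both for Pdgfra. The authors' table of their edgeR (3.2.4) comparison holds log fold changes, abundances and p-values and was not used.

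From the counts, 13605 genes passed filterByExpr. They were scaled by TMM (factors 0.816 to 1.23) and tested with edgeR 4.0.16 (R 4.3.3; glmQLFit with default settings, glmQLFTest) with group as the only term and Benjamini-Hochberg adjustment over all genes tested, at a threshold of 0.05. Standard errors were derived from the F statistic. Single values were compared by exact permutation of the libraries (scipy 1.17.1), for which 0.0286 is the smallest two-sided p. Alternatives were no filter, at least 1 CPM in 2 libraries, other scalings, DESeq2 1.42.0, edgeR's exact test, limma 3.58.1 (voom with quality weights), the mouse as a block, each library left out and, chosen after seeing the data, JV602 and JV621 alone. The scripts were tested on simulated data. Symbols and coordinates came from GENCODE M21 (GRCm38) or a table of gene names for 46005 of 46603 identifiers.

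The libraries of a mouse come from the same animal, so mouse pairs them. The correlation across genes of their deviations from the group means was 0.0961 in JV602, 0.0737 in JV621, 0.00334 in JV624 and 0.171 in JV6314. The main test and the permutations take the libraries as unpaired, so their p-values measure the spread between the libraries of a group. A paired exact sign-flip permutation test over 4 mice cannot go below p = 0.125. Depth of 4670132 to 9851819 counts per library sets a floor of 3 counts, and intervals and floors cover counting error only.

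The 10 markers and all lists were chosen with earlier results of these data known. The genes named are the 10 markers, and from each other list any gene past the threshold or otherwise genes among the 3 with the highest mean CPM, and the 5 genes most correlated with the tested markers. Eln was named beyond that rule, after its values were seen.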

Additional observations from a re-analysis of the deposited data

Results flagged for a closer look

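Among 54 groups of 4 libraries examined, 3 had a library far from the other 3, close to the share of about 1 in 20 that chance gives. Des had 0.333 CPM (3 counts) in the LLRC library of JV6314 and 0 counts in the other LLRC libraries, a pattern that is flagged however few the reads. The summed level of the receptor, activators and inhibitors of HGF was 690 CPM in the non-LRC library of JV621, beside 389.9 to 438 CPM in the other non-LRC libraries. The summed level of the pancreatic acinar markers was 1030 CPM in the non-LRC library of JV6314, beside 5.39 to 22.9 CPM in the other non-LRC libraries.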

How the results depend on the processing

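The fold changes of Dcn, Ecm1, Col3a1 and Reln kept their direction in every alternative run. The largest moves of the log2 fold changes are given beside each marker tested, and for the 4 that the filter removed beside the fit without it. The fold changes of Pdgfra and Col1a2 kept their direction except in JV602 and JV621 alone, a setting chosen after seeing the data, where they were 4.13 and 0.12; the cause was not tested. The count of genes called was 0, with 11 without the expression filter, 221 with DESeq2, 159 with edgeR's exact test, 0 with the replicate block and with limma, and 0 to 6 when 1 library was left out (6 without the non-LRC library of JV602). Of the 10 markers, 1 (Ecm1, -3.74 in both) was called by DESeq2 and by the exact test. DESeq2 called 2 other stellate, 2 portal fibroblast, 3 small leucine-rich proteoglycan, 1 protease or inhibitor, 12 endothelial and 1 hepatocyte marker, and the exact test 1, 1, 1, 1, 12 and 1. Without the filter 1 endothelial marker was called, and 0 to 2 with 1 library left out. With the mouse as a block, the median of the other stellate markers was -1.96 in place of -2.85, with limma -1.92 and in JV602 and JV621 alone -1.78. In JV602 and JV621 alone the medians were 0.334 for mural, 0.632 for mesothelial, -0.0964 for hepatocyte, 0.0835 for leukocyte, -0.0158 for acinar and 0.702 for PDGF ligand genes. The PDGF ligand median was 0.352 with library size alone, 0.596 with limma and 0.303 to 0.682 with 1 library left out. Without the filter, and with at least 1 CPM in 2 libraries, the medians were -1.13 and -1.16 for proteases and inhibitors, -4.12 and -4.13 for leukocyte and -8.78 and -8.71 for acinar markers, since more genes were fitted. With 1 library left out they were -1.40 to -0.405 for proteases and inhibitors and 1.31 to 3.68 for leukocyte markers. The replicate block, which pairs the libraries of a mouse, changed no call. With 4 mice in all, each giving a library to both groups, and few reads, Des, Hgf, Pdgfrb and Col1a1 could not be compared with precision.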
